A study of Mus musculus with 39 samples.

Results

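The comparison sets 4 whole-testis RNA libraries of F2 males, descendants of Kdm6a conditional knockout (cKO) mice, against 4 control testis libraries, controls 1 to 4. The 8 libraries are part of a series of 39 samples and were chosen by their titles and because their files list the same 118489 transcripts. The F2 males carried the floxed allele of Kdm6a (genotype Kdm6a fl/y) without Cre and are labelled F2 of cKO. The controls were also Kdm6a fl/y and Cre-. Both groups therefore share the floxed allele on the single X chromosome and the lack of a recombinase. In the cKO ancestors, labelled Ddx4-Cre+, the recombinase was driven by Ddx4, a germ cell gene. RNA came from enzymatically dissociated testis cells, was selected by its polyA tail and was sequenced in pairs of 100 bases. The labels give no age, strain, litter or parent for any male, and do not say whether the 4 F2 males were related. As nothing in the labels ties each library to a separate animal, p-values measure the spread between these libraries.

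KDM6A, also called UTX, removes methyl groups from lysine 27 of histone H3, a modification that Polycomb complexes write and that goes with silent genes. In the male germ line most histones are later replaced by protamines. Whether a change of chromatin in the germ cells of one generation can be read in descendants with intact Kdm6a is the question such F2 animals address. The testis transcribes an unusually large part of the genome, much of it in meiotic cells and spermatids. Whole-testis RNA mixes all of these cells, so fewer cells of a type and less RNA per cell cannot be told apart.

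The unit of measurement is the transcript, 1 isoform of a gene. A quantifier such as kallisto divides reads that fit several isoforms among them, so a transcript's estimated count can change while the gene's total does not. Of the 118489 transcript IDs, 0 were found in the gene tables used here. Transcripts are therefore reported by ID without a gene name, and Kdm6a and markers of testis cell types were not analysed here.

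The 8 libraries held 21794000 (control 1) to 28477800 (control 4) estimated counts, and 75163 to 78023 transcripts with at least 1 count. F2 and control did not differ detectably in the total (two-sided exact permutation p = 0.657, n = 4 and 4), in the number of transcripts detected (p = 1) or in the fragment-length measure given below (p = 0.971). Among 13475 transcripts with a mean of at least 10 CPM (counts scaled to library size), log2 CPM correlated across transcripts, which are not independent replicates, with r = 0.967 to 0.977 in control pairs and 0.968 to 0.976 in F2 pairs. Between a control and an F2 library r was 0.959 to 0.975, so the ranges within and between groups largely overlapped. On the first principal component of these transcripts, with 22.1% of the variance, the controls lay at -14.1 to -7.82 and the F2 libraries at 3.19 (F2 1) to 24.8 (F2 4). Control 1 stood apart on the second component, at 26.0, and F2 4 stood apart from the other F2 libraries on both, with 10.3 on the second against -12.3 to -4.70. Over all 52475 transcripts tested below, single libraries stood out more. The first component (16.6%) held control 1 at -149, controls 2 to 4 at -14.3 to 4.53 and F2 at 26.2 to 58.1. The second (15.9%) held F2 4 at 138 and the other libraries at -56.4 to 39.9.

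The number of transcripts called between F2 and control testis depended on the test, with 58 by edgeR and 587 (265 lower, 322 higher) by DESeq2 on the same libraries, 56 of the 58 among them. The edgeR calls are described here. By edgeR's quasi-likelihood test, 52475 transcripts were tested, and 23 were lower and 35 higher in F2 with an adjusted p below 0.05. The 58 calls are 0.111% of the transcripts tested, 0.0438% lower and 0.0667% higher. In each of the 58, every F2 library lay on the same side of every control. Such separation was found in 5.08% of all tested transcripts, 2.4% with F2 lower and 2.68% with F2 higher. The median log2 fold change over all tested transcripts was 0.00044, with quartiles of -0.15 and 0.17. In the plot of fold change against level, the calls are not simply the largest changes at their level. ENSMUST00000064571 had a log2 fold change of 0.44, with 37.1 CPM in control and 50.5 CPM in F2. It was not called (adjusted p = 0.122 by edgeR). ENSMUST00000057576 was called at a log2 fold change of 0.31, with 45.6 CPM in control and 56.5 CPM in F2.

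**Figure D1:**
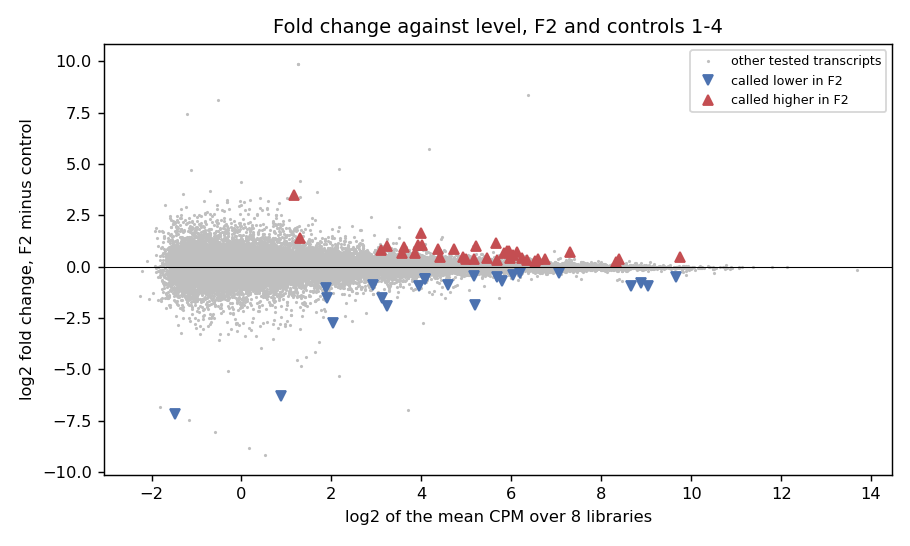
Log2 fold change of F2 against controls 1 to 4 (vertical) by the log2 of the mean CPM over 8 libraries (horizontal), with 1 point per tested transcript. Of 52475, 23 are called lower (blue) and 35 higher (red), and 42 of the 58 have a mean of at least 15.4 CPM.

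The transcript with the smallest p, ENSMUST00000097399 (712 bases), was lower in F2. In controls 1 to 4 it stood at 680, 723, 677 and 698 CPM, and in F2 1 to 4 at 353, 375, 353 and 362 CPM. The F2 libraries sat close together far below the controls, with a wide gap between the groups. Its log2 fold change was -0.94 (SE 0.03, adjusted p = 3.69e-05 by edgeR). Scaled by transcript length, it fell from 2032 ± 52.4 TPM (SD, n = 4; the authors' length-scaled unit) to 1081 ± 26.8 TPM, which makes it an abundant testis RNA in both groups.

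ENSMUST00000011895, a transcript of 8747 bases, was lower by a larger factor. The controls held 57.1, 47.3, 63.5 and 60.9 CPM. The F2 libraries held 16.1, 15.6, 15.4 and 15.1 CPM. The F2 values lay close together at a low level, while the controls spread more widely far above it. The log2 fold change was -1.88 (SE 0.09, adjusted p = 0.000307 by edgeR), or 9.75 ± 1.21 TPM (SD, n = 4) in control and 2.72 ± 0.0686 TPM in F2.

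Among the transcripts that rose, ENSMUST00000059320 (1191 bases) had the smallest p. It measured 19.2, 19.5, 18.3 and 18.7 CPM in controls 1 to 4. In F2 1 to 4 it measured 33.9, 33.4, 32.6 and 36.4 CPM. The controls were close to each other and every F2 library was well above them. Its log2 fold change was 0.85 (SE 0.05, adjusted p = 0.00107 by edgeR), and per length it went from 28.2 ± 0.917 TPM (SD, n = 4) to 52.0 ± 2.64 TPM.

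ENSMUST00000063683 (2312 bases) rose with the same adjusted p of 0.00107 (edgeR) and a log2 fold change of 0.75 (SE 0.05). The controls had 42.0, 45.3, 47.9 and 42.8 CPM, and the F2 libraries 75.8, 76.5, 72.8 and 75.3 CPM. Again neither group had a library near the other. The named transcripts were picked by small p among calls without overlap, so the gaps described follow from the selection. Per length the levels were 30.9 ± 1.80 TPM (SD, n = 4) in control and 53.4 ± 1.08 TPM in F2.

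The changes called were mostly moderate in size. Among transcripts that rose, 16 changed by under 1.5-fold, 12 by 1.5 to 2-fold, 6 by 2 to 4-fold and 1 by over 4-fold. Among those that fell, the counts were 8, 7, 5 and 3. The median log2 fold change was 0.66 in the 35 higher transcripts, with a range of 0.23 to 3.50. In the 23 lower ones it was -0.92, also when the transcript at 0 counts in F2 was set to its bound. One lower transcript, singled out after its values were seen, had 18 counts in each of the 4 controls and 0 in each F2 library. With a floor of 3 counts over the F2 group it was at least 23.3-fold lower than controls 1 to 4 (adjusted p = 0.0481 by edgeR). This transcript was also at 0 CPM in controls 5 and 7 and in F1 2, and at 0.243 CPM in control 6, so the absence was not particular to F2. F1 1 and F1 3 held 1.23 and 2.19 CPM.

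The median coefficient of variation between libraries was 5.79% in control and 4.31% in F2 for the higher set, and 6.71% and 6.33% for the lower set. The test that chose these transcripts favours a low spread between the same libraries. Together the 35 transcripts summed to 2472 ± 49.7 CPM (SD, n = 4) in control and 3452 ± 45.3 CPM in F2. The 23 lower transcripts summed to 3459 ± 81.2 CPM in control and 2104 ± 31.5 CPM in F2. The variation and the sums describe transcripts selected on the same libraries and are no separate evidence.

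Most called transcripts were abundant. The tested transcripts were split by mean CPM into 5 classes of 10495. The most abundant class, from 15.4 CPM upward, held 42 calls (0.400% of its transcripts), and the 3 classes below 4.26 CPM held 1, 0 and 6. An unadjusted p below 0.05 was also commoner at high levels, at 13.6% in the top class against 2.85% in the lowest. The test finds changes less readily at low levels. In simulated counts it recovered 3 of 38 changes of log2 1 under 10 CPM, and 7 of 12 at 10 CPM or more. The part of this in the spread of the calls over the classes was not tested. By length the calls were spread more evenly, with 8 among transcripts of up to 785 bases and 12 or 13 in each of the 4 longer classes. Of the 58, 2 transcripts of equal length had the same count in every library and so are 1 measurement listed under 2 IDs. Equal rounded counts in every library, at any transcript length, were found in 1341 of the tested transcripts.

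The number of calls fell when any 1 library was left out. Leaving out control 1, 2, 3 or 4 gave 19, 38, 30 or 25 calls. Of these, 17, 25, 23 or 22 were among the 58, and the rest were new. Leaving out F2 1, 2, 3 or 4 gave 32, 22, 19 or 20, with 24, 18, 18 or 18 among the 58. In each of these 8 fits the 4 transcripts named above stayed under an adjusted p of 0.05 by edgeR. They had been picked for a small p in the same libraries, so they do not stand for the 58. On log2(TPM + 1), limma called 19 lower and 51 higher, with 46 of the 58 among them. This is a larger share of higher calls than the 23 and 35 by edgeR on counts. With total counts in place of TMM, edgeR called 23 lower and 45 higher. The balance was not the same in every fit. It was 20 lower and 18 higher without control 2, and 17 and 15 without F2 1. The other fits without 1 library had more higher than lower calls.

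The controls of the series that were not used above, controls 5 to 7, give a second reference with the same labelled genotype. Their files list 117486 transcripts, of which 115771 have the same ID and length in both sets and hold 98.4% of the estimated counts of control 1. Over transcripts longer than 5000 bases, their median length minus effective length was 338, 247 and 244 bases. This measure, which depends on the fragment length, was 208 to 227 bases in the 8 libraries above. The part of these differences in the values that follow was not tested. All 14 libraries of controls, F1 and F2 were scaled together for these values, which moved the CPM of the 4 named transcripts by at most 2.32%.

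For 3 of the 4 named transcripts, controls 5 to 7 were at the level of F2 or beyond it rather than at that of controls 1 to 4. ENSMUST00000097399 stood at 351, 364 and 364 CPM in controls 5 to 7, at or just under the F2 range of 354 to 383 CPM on this scaling. ENSMUST00000011895 was at 10.9, 11.7 and 12.3 CPM there, below every F2 library and far below controls 1 to 4. ENSMUST00000063683 was at 81.1, 84.3 and 76.9 CPM, within or above the F2 range of 72.9 to 78.1 CPM. Only ENSMUST00000059320 among the 4 named transcripts kept the contrast, at 20.1, 16.2 and 15.2 CPM in controls 5 to 7 against at least 32.6 CPM in F2. Set against controls 5 to 7 alone, the log2 fold changes were 0.02, 0.44 and -0.09 for the first 3 of these transcripts, reversed in sign, with adjusted p = 0.844, 0.0486 and 0.472 by edgeR. Of the 58 calls, 56 were tested in that fit, and 43 of these kept their sign. With all 7 controls in the fit, edgeR called 21 transcripts (4 lower, 17 higher), 15 of them among the 58. ENSMUST00000097399, ENSMUST00000011895 and ENSMUST00000063683 were not called (adjusted p = 0.606, 0.653 and 0.768 by edgeR).

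**Figure D2:**
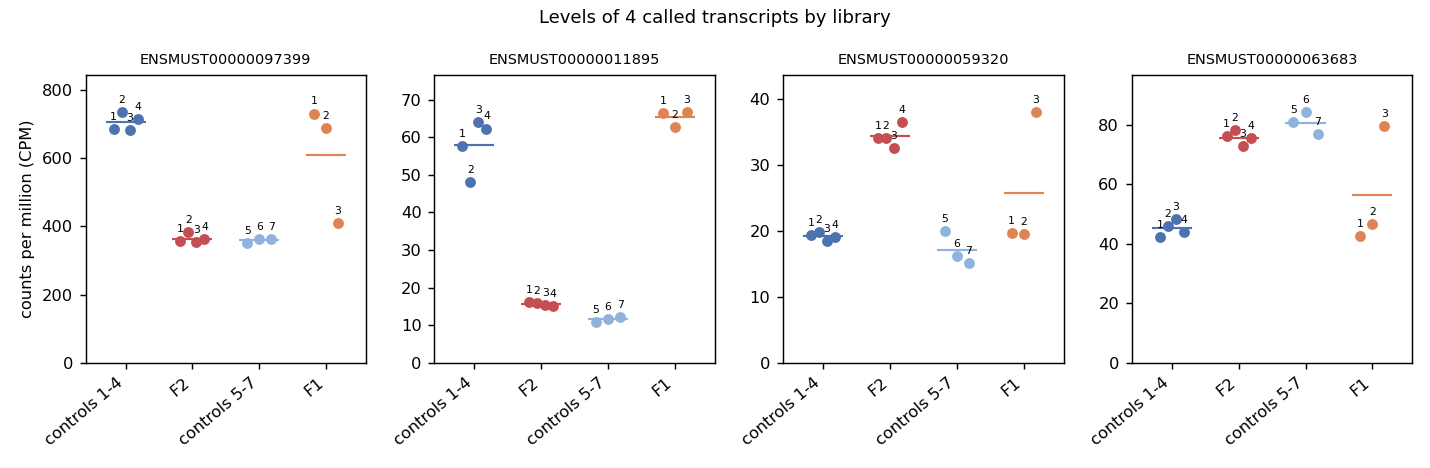
CPM (vertical, from 0) of the 4 named transcripts in controls 1 to 4, F2, controls 5 to 7 and F1, with 1 numbered point per library and a line at each mean, on the joint scaling of 14 libraries. Controls 5 to 7 lie with F2 or beyond it for ENSMUST00000097399, ENSMUST00000011895 and ENSMUST00000063683, and with controls 1 to 4 for ENSMUST00000059320.

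The same reading was made for all 58 transcripts. It reuses the F2 values by which they were chosen, so the shares over all transcripts are a background and not the share to be met without a difference. F2 was below all of controls 5 to 7 in 3 of the 23 lower transcripts (13%), where 8.36% of the 51459 tested transcripts common to both sets were. It was above all of them in 26 of the 35 higher transcripts (74.3%), where 8.86% of transcripts were. Thus 20 of the 23 transcripts that fell against controls 1 to 4 were not separated from controls 5 to 7 in that direction. F2 lay on the opposite side of controls 5 to 7, without overlap, in 4 of the 58. The difference between the lower and the higher set was not tested.

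Each library was also placed on a line running from the mean of controls 1 to 4 (position 0) to the F2 mean (position 1), on log2(CPM + 0.1). All 3 of controls 5 to 7 were nearer to F2 than to controls 1 to 4 in 17 of the 23 lower transcripts and in 7 of the 35 higher ones. None of the 3 was nearer to F2 in 2 lower and 21 higher transcripts. The remaining 4 and 7 were mixed. Over the 58 transcripts, the quartiles of the positions were 0.0045 and 0.99 in control 5, -0.16 and 0.91 in control 6, and -0.19 and 1.00 in control 7. In the libraries that define the line the quartiles ran from -0.09 to 0.11 in controls 1 to 4 and from 0.88 to 1.08 in F2. Controls 5 to 7 thus lay near one end of the line for some transcripts and near the other for others.

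**Figure D3:**
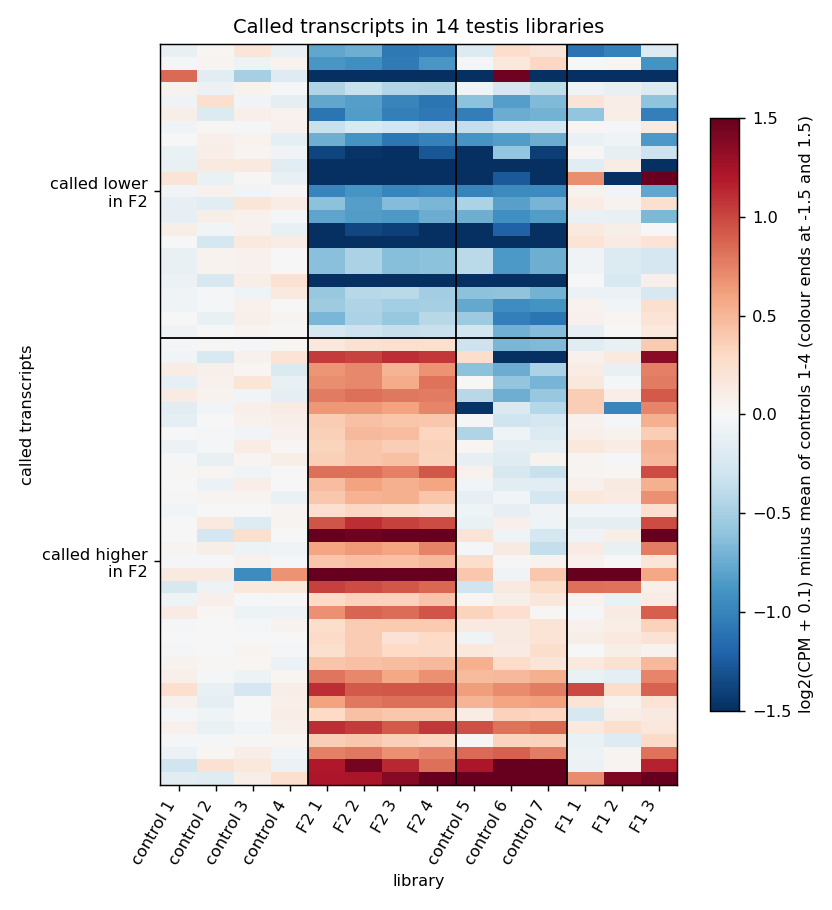
Log2(CPM + 0.1) minus the mean of controls 1 to 4 (colour, cut at -1.5 and 1.5) for the 58 called transcripts (23 lower above the line, 35 higher below it) in 14 testis libraries. Within each block, rows are ordered by the median position of controls 5 to 7. Blue in controls 5 to 7 accompanies blue in F2 in most lower transcripts, while most higher transcripts are red in F2 and not in controls 5 to 7.

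The 3 F1 libraries, labelled Kdm6a fl/y, Cre- and F1 of cKO, are set beside these values, with controls 1 to 4 as their shared reference. F1 1 and F1 2 were at 731 and 687 CPM of ENSMUST00000097399, as high as controls 1 to 4, and F1 3 was at 410 CPM. For ENSMUST00000059320 they held 19.7 and 19.6 CPM, and F1 3 held 38.0 CPM. For ENSMUST00000063683 they held 42.7 and 46.5 CPM, and F1 3 held 79.5 CPM. In these 3 transcripts F1 3 was slightly beyond F2 or, for ENSMUST00000097399, between the groups and nearer to F2, and the other F1 libraries were at the level of controls 1 to 4. ENSMUST00000011895 was high in all 3, at 66.5, 62.8 and 66.7 CPM. On the line described above, F1 3 was nearer to F2 than to controls 1 to 4 in 27 of the 35 higher transcripts and in 8 of the 23 lower ones. F1 1 was nearer to F2 in 5 and 3, and F1 2 in 4 and 3. These counts are a description, as the line is set by the same controls and F2 libraries. With F1 fitted as a group beside F2 and controls 1 to 4, edgeR called 15 transcripts in F2 (10 lower, 5 higher), all 15 among the 58. Of the 4 named transcripts only ENSMUST00000011895 then stayed under 0.05. The adjusted p was 0.107 for ENSMUST00000097399, 0.251 for ENSMUST00000059320 and 0.249 for ENSMUST00000063683. Their log2 fold changes hardly moved, at -0.949, 0.844 and 0.750 in that fit against -0.945, 0.848 and 0.754 without F1.

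The share of counts in the most abundant RNAs did not pass the adjusted test. The 100 most abundant transcripts of each library held 12.9%, 12.9%, 13.1% and 13.2% of the estimated counts in controls 1 to 4, and 12.6%, 12.7%, 12.7% and 12.5% in F2 1 to 4. The groups did not overlap, with means of 13.03 ± 0.172% (SD, n = 4) and 12.6 ± 0.0850%. The two-sided exact permutation p was 0.0286, the smallest that 4 against 4 libraries allow, and 0.114 after Benjamini-Hochberg adjustment over 4 library measures. As the other measures had large p-values, even full separation could not give a lower adjusted p. The adjusted test therefore could not pass and decides nothing here. Without F2 1, F2 2 or F2 4 the exact permutation p was 0.0571. The differences were then -0.404, -0.408 and -0.360 percentage points, against -0.400 with every library. Fewer libraries allow fewer splits, so these p-values move in larger steps. Controls 5 to 7 had 12.46%, 12.40% and 12.50%, and control 7 lay only just below the lowest F2 library (F2 4, 12.51%). Their files list another set of transcripts, and these shares were not limited to the transcripts common to both sets. The 3 F1 libraries had 12.9% to 13.1%.

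Of the 100 transcripts with the highest mean share over the 8 libraries, 84 had a log2 fold change below 0, with a median of -0.05, and 70 had a lower share of the total without TMM scaling. Of these 100, 1 was called lower and 1 higher, where 0.0438% and 0.0667% of all tested transcripts were, and 10 were lower and 2 higher without overlap, where 2.4% and 2.68% were. These shares are not matched by level. In the most abundant of the 5 level classes, 15 of 10495 transcripts were called lower and 27 higher. The share without overlap was not split by level. The single most abundant transcript held 1.37 ± 0.191% of the counts (SD, n = 4) in control and 1.23 ± 0.139% in F2, with overlapping libraries and an adjusted p of 0.837 by edgeR. Together the 100 transcripts differed by -0.406 percentage points (F2 minus control), and by -0.269 without that transcript. The 2 called ones among them moved in opposite directions by similar amounts, so that together they added 0.0018 points.

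**Figure D4:**
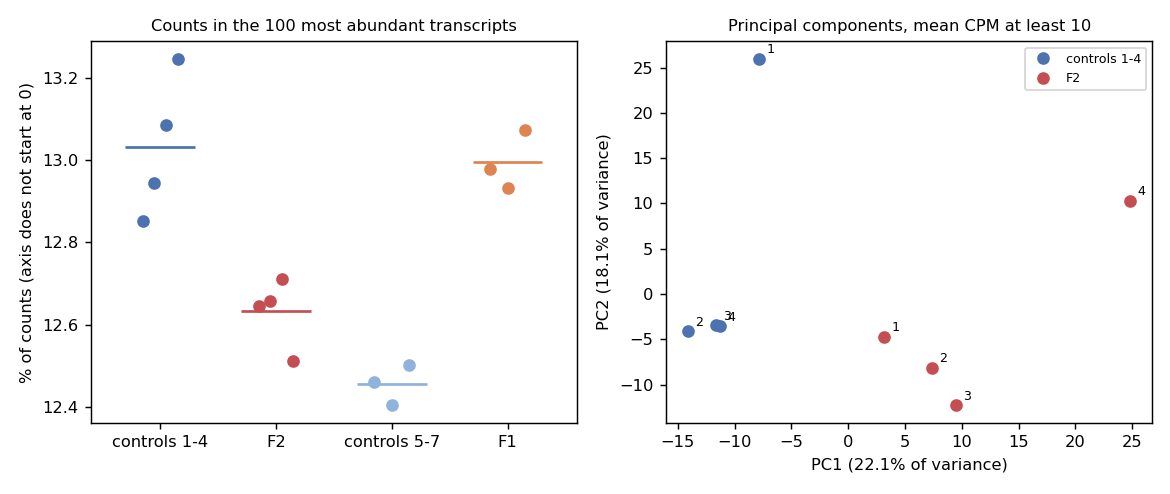
Left, percent of estimated counts in the 100 most abundant transcripts of each library (the axis does not start at 0), with a line at each group's mean. Right, the first 2 principal components of log2 CPM over 13475 transcripts in controls 1 to 4 and F2, with replicate numbers, where the groups part along PC1.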

How the data were processed

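The columns of the deposited tables are estimated counts and TPM of single transcripts, per the file headers. The submitters' processing notes name kallisto 0.45.0. The deposited estimated counts carry no normalization. The deposited TPM values are relative to effective length and library total. Which transcript index was used is not stated in these sources.

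Estimated counts were rounded and tested with edgeR 4.0.16 in R 4.3.3 (TMM factors, filterByExpr, quasi-likelihood F test, Benjamini-Hochberg adjustment over 52475 transcripts). Standard errors were derived from the test statistic. CPM uses TMM-scaled library sizes. Alternatives used DESeq2 1.42.0 and limma 3.58.1 on log2(TPM + 1). The fit was tested on simulated data with known changes. Under 10 CPM it recovered 0 of 39 changes of log2 0.5 and 3 of 38 of log2 1. At 10 CPM or more it recovered 5 of 11 and 7 of 12. Many moderate changes would thus be missed, most of all at low levels.

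In each direction, the 2 called transcripts with the smallest p, no overlap and a mean of at least 1 CPM were named. The comparison, lists and rules were chosen with earlier results of these data known. The planned sums per gene, gene lists and cell type markers were left out, as no source used here pairs transcripts with genes.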

Additional observations from a re-analysis of the deposited data

How the results depend on the processing

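With 58 calls, 104 were made at an adjusted p under 0.1. DESeq2 called 587 (56 of the 58 among them), and all 7 controls gave 21 (15 of the 58). Controls 5 to 7 alone gave 1090 (23 of the 58), and F1 as a further group 15. Against controls 5 to 7, 56 of the 58 were tested and 43 of these kept their sign. ENSMUST00000011895 was called there in the opposite direction. With the replicate number as a block (replicate block) edgeR called 5 (3 lower, 2 higher), all among the 58. ENSMUST00000059320 and ENSMUST00000063683 were no longer called (adjusted p = 0.0799 and 0.0935 by edgeR). Their log2 fold changes were 0.847 and 0.755 there, against 0.848 and 0.754 without the block. The labels do not say that a number marks a pair. Deviations of same-numbered libraries correlated with r = -0.01 to 0.03, and those of differently numbered libraries with r = -0.029 to 0.027. The ranges overlapped. These correlations ran over all 52475 tested transcripts, of which 3 of the 5 level classes lie below 4.26 CPM. They were not computed for abundant transcripts alone, so they do not decide whether a pairing exists. Whether same-numbered libraries were paired in another way was not tested. Leaving out 1 library gave 19 to 38 calls, with 17 to 25 of the 58 among them. DESeq2 size factors in edgeR, total counts in place of TMM (chosen after seeing the data), no filter (40 calls) and a stricter filter (76 calls) stayed within 1.5 times. Against controls 5 to 7 the log2 fold changes of ENSMUST00000097399, ENSMUST00000011895 and ENSMUST00000063683 reversed to 0.0213, 0.44 and -0.0885. The cause was not tested. The share of the 10 most abundant transcripts differed by -0.157 points, past no threshold (exact permutation p = 0.229), and that of the 100 by -0.460 to -0.328 points without 1 library, with p = 0.0286 to 0.0571. Without 1 library, the difference in detected transcripts ran from -670 to 258 and in length minus effective length from -4.40 to 1.76 bases, both through 0. The total differed by -2408860 to -180910. Of the 58 calls, 1 had a mean below 0.79 CPM. The part of depth in this was not tested.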

Other observations

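Few transcripts had 0 rounded estimated counts throughout one group and at least 10 in each library of the other. In F2, 6 transcripts had 0 counts in all 4 libraries and at least 10 in each control. In control, 4 had 0 counts in all 4 libraries and at least 10 in each F2 library. Only 1 of these 10 passed an adjusted p of 0.05 by edgeR, and it was also at 0 CPM in controls 5 and 7. The levels of the others in controls 5 to 7 and F1 were not examined. Of the 4 at 0 in controls 1 to 4, 2 shared the same counts, 105, 12, 13 and 305 in F2 1 to 4. The others in that set had 29, 17, 17 and 21 counts, and 22, 12, 65 and 36.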
